A study of Canis lupus familiaris with 9 samples.

Results

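Glycolysis and glycogen metabolism were followed in skeletal muscle through 37 genes, 25 for the enzymes that take glucose to lactate and their side branches and 12 for the making and breakdown of glycogen. The members are listed by pathway, and each was read from the probe set (the group of probes for 1 transcript) that carried its symbol alone and had the highest mean over all 9 arrays. Of these, 36 had such a probe set and 33 (21 of glycolysis, 12 of glycogen metabolism) entered the test, among 7534 genes with a tested probe set of 1 symbol. LDHB, the heart-type subunit of lactate dehydrogenase, had no probe set with its symbol alone, so no level is given for it. PFKP and PFKFB2 were below the filter on low values, and the brightest probe set of GAPDH is one of the array's control probe sets, which stood outside the test.

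The muscle came from 9 intact female beagles, 4 years old and fed the same commercial performance diet, sampled fasted overnight at week 24. Animals 2, 5, 6, 7 and 8 formed the ad libitum group of 5 and ate without restriction. Animals 1, 3, 4 and 9 were the 4 controls, on a ration set to maintain their starting weight. Assignment was random. Each dog gave 1 array, and the labels do not say which muscle was taken. Values are GCRMA levels on the log2 scale, so a difference of 1 is a doubling, and they range from 0.652 to 16.6 over the array. A level of one probe set cannot be set against that of another, so all comparisons run between dogs within a gene. Of the fibre markers that define skeletal muscle, 14 of 15 fast fibre genes and 12 of 14 slow fibre genes entered the test. The fast gene MYH4 was below the filter on low values, and the slow genes TNNI1 and CASQ2 had no probe set with their symbol alone. Group means were 14.0 and 14.3 for the fast list and 13.7 and 13.5 for the slow list (ad libitum and control).

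Glycolysis splits glucose into pyruvate and is the quickest source of ATP for contracting muscle, above all in fast fibres. Glycogen is the glucose polymer that muscle stores after feeding and breaks down, through phosphorylase and its activating kinase, when it contracts. Several steps are served by isozymes: muscle fibres are rich in PGAM2, ENO3, PFKM, ALDOA and LDHA, while PGAM1, ENO1, PFKL, PFKP and HK1 are forms found in many cell types.

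No member passed the test between the feeding groups. With limma over 18394 probe sets and Benjamini-Hochberg adjustment, 0 of the 33 tested members had an adjusted p under 0.05, and neither did any other probe set (0 percent). The lowest adjusted p among the members was 0.796. Without adjustment, 1 member had p under 0.05 in the direction higher in ad libitum muscle, PGAM1, where 3.71 percent of all probe sets did, and 1 in the direction lower, GPD2, where 2.21 percent did. The count in the lower direction was 6 with array weights, 4 with an intensity trend and 3 with each array centred on its median. The share of all probe sets was not counted under these fits, so a gain particular to the members cannot be read from them. PGAM1 was also the 1 tested member whose groups did not overlap, with all ad libitum dogs above all controls (0.739 percent of all probe sets), and 0 members had all ad libitum dogs below (0.696 percent).

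Small differences leaned to lower means in ad libitum muscle. Of the 33 members, 23 had lower means and 10 higher. The median log2 difference was -0.11, against -0.0082 over all probe sets, of which 51.6 percent were lower. In glycolysis 14 of 21 were lower with a median of -0.11, and in glycogen metabolism 9 of 12 were lower with a median of -0.12. The 95 percent interval of the difference lay within 1 log2 unit of 0 for 22 of 33 members (66.7 percent, against 82.2 percent of all probe sets). These medians carry no test, and leaving out control dog 9 brought the glycogen median to -0.0048, and leaving out ad libitum dog 7 to -0.25. With the adipocyte markers as a covariate it turned to 0.13.

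**Figure D1:**
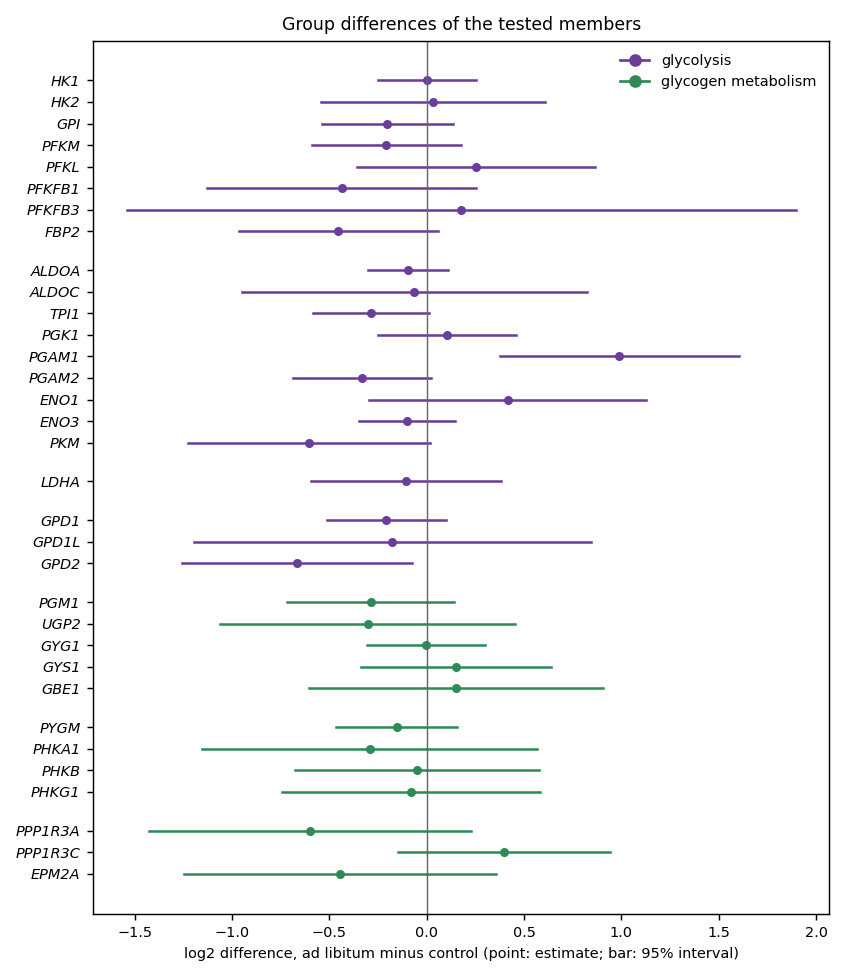
Log2 difference, ad libitum minus control, of each of the 33 tested members on the horizontal axis, with its 95 percent interval as a bar, ordered by pathway step and coloured purple for glycolysis and green for glycogen metabolism. PGAM1 at 0.99 stands to the right of all others, GPD2 and PKM at -0.67 and -0.61 furthest to the left, and the intervals of all but PGAM1 and GPD2 cross 0.

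Entry of glucose and the control point of the pathway came first. HK2, the insulin-regulated hexokinase of muscle that traps glucose as glucose phosphate, read 5.48, 6.27, 7.00 and 6.25 in control dogs 1, 3, 4 and 9 and 6.22, 6.19, 6.26, 6.46 and 6.28 in ad libitum dogs 2, 5, 6, 7 and 8. The control dogs were the more scattered, with dog 1 lowest and dog 4 highest of all 9, and the ad libitum dogs lay between them. The log2 difference was 0.032 (95 percent interval -0.54 to 0.61). HK1, the hexokinase of most tissues, sat near the filter at 3.89 to 4.23 in all dogs, with a difference of 0.0034. GPI, which turns glucose phosphate into fructose phosphate, differed by -0.20 (SE 0.15).

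PFKM, the muscle subunit of phosphofructokinase and the main control point of glycolysis, read 14.34, 14.30, 14.70 and 14.79 in control dogs 1, 3, 4 and 9 and 14.08, 14.25, 14.20, 14.75 and 14.33 in ad libitum dogs 2, 5, 6, 7 and 8. Dogs 2, 5 and 6 were the lowest, but dog 7 stood with the highest controls, and the groups overlapped. The difference was -0.21 (interval -0.59 to 0.17, adjusted p = 0.857, limma). PFKL, the liver subunit, had 0.25 (SE 0.27), and its other 2 tested probe sets were also positive. PFKP, the platelet subunit, was listed at 3.58 to 3.80 in the control dogs and at 4.52, 6.22, 4.16, 3.76 and 3.80 in ad libitum dogs 2, 5, 6, 7 and 8. It exceeded the filter level on 3 arrays, all of ad libitum dogs, with dog 5 highest.

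The bifunctional enzymes that make and remove the activator of phosphofructokinase differed in how much they varied. PFKFB1, whose muscle transcript is one product of its gene, read 9.96 to 10.87 in control and 9.12 to 10.64 in ad libitum dogs, a difference of -0.44 (SE 0.31). PFKFB3, the inducible form, had the widest spread of all tested members. It stood at 12.50 in ad libitum dog 2, against 8.44 to 9.64 in the other ad libitum dogs and 8.50 to 10.49 in control dogs. A second probe set of PFKFB3 also put dog 2 highest, at 9.92 where the other 8 dogs read 5.83 to 7.85. The group difference of 0.18 had an interval of -1.54 to 1.90, and without dog 2 it was -0.49. PFKFB2 was listed at 2.13 to 2.25 in all dogs. FBP2, the muscle fructose bisphosphatase that runs the control step in reverse, had 12.73 to 13.36 in control and 12.07 to 13.25 in ad libitum dogs, a difference of -0.45 (interval -0.97 to 0.058), and its second probe set had the same difference of -0.45.

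Below the control point, ALDOA, the muscle aldolase, read 16.50, 16.61, 16.50 and 16.57 in control dogs 1, 3, 4 and 9 and 16.35, 16.50, 16.49, 16.52 and 16.41 in ad libitum dogs 2, 5, 6, 7 and 8. Dogs 2 and 8 were lowest and the groups overlapped, within a total range of 0.26. The difference was -0.095 (interval -0.30 to 0.11). These levels lie close to the array's highest value of 16.6, and whether the signal is compressed there was not tested. ALDOC, the brain aldolase, read 5.02 to 5.64 in control and 3.95 to 6.29 in ad libitum dogs and differed by -0.064 on its main probe set and by 0.33 on the other.

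TPI1, triose phosphate isomerase, was 14.22, 14.08, 14.31 and 14.32 in control dogs 1, 3, 4 and 9. In ad libitum dogs 2, 5, 6, 7 and 8 it was 13.85, 13.98, 13.91, 14.28 and 13.70. Ad libitum dogs 2, 5, 6 and 8 lay below every control dog and dog 7 lay among the controls. The means were 13.9 ± 0.213 (SD, n = 5) and 14.2 ± 0.109 (SD, n = 4), a log2 difference of -0.29 (interval -0.58 to 0.011, adjusted p = 0.796, limma).

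GAPDH, which makes the first NADH of the pathway and is often used as a reference gene, had 16.28 to 16.43 in control and 16.26 to 16.42 in ad libitum dogs on its brightest, 3' control probe set. The groups overlapped almost entirely, with a difference of -0.037, also close to the top of the scale. The probe sets from the middle and the 5' end of the transcript differed by -0.11 and -0.16. A GAPDH probe set outside the controls, at a much dimmer 5.87 against 6.24, differed by -0.36 (unadjusted p = 0.0459, adjusted p = 0.796, limma). It is not the probe set read for GAPDH, so it does not enter the counts of members. PGK1, the first ATP-making enzyme, differed by 0.10 (SE 0.16).

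The phosphoglycerate mutase step held the member furthest from equality. PGAM1, the form of most tissues, read 10.39, 9.64, 10.20 and 9.75 in control dogs 1, 3, 4 and 9 and 11.25, 11.72, 10.82, 10.49 and 10.62 in ad libitum dogs 2, 5, 6, 7 and 8. Every ad libitum dog was above every control, though dog 7 exceeded control dog 1 only narrowly. The means were 11.0 ± 0.503 (SD, n = 5) and 9.99 ± 0.357 (SD, n = 4), a log2 difference of 0.99 (interval 0.38 to 1.60), that is 1.99-fold (1.30 to 3.04). The adjusted p was 0.796 (limma), so the difference did not pass.

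The other PGAM1 probe set had 0.78 (SE 0.25), again without overlap of the groups: 8.50 to 9.02 in control and 9.05 to 10.21 in ad libitum dogs. The 2 probe sets measure the same RNA of the same dogs and are not separate evidence. Over the alternatives run for this gene, the PGAM1 difference ran from 0.60, with the mean of adipocyte markers as a covariate, to 1.12, without control dog 1, and its lowest adjusted p was 0.175 (limma).

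PGAM2, the muscle form of the same enzyme, lay in the opposite direction. It read 14.46, 14.68, 14.39 and 14.65 in control dogs 1, 3, 4 and 9 and 14.11, 14.34, 14.07, 14.63 and 13.91 in ad libitum dogs 2, 5, 6, 7 and 8. Ad libitum dogs 2, 5, 6 and 8 were below every control dog, and dog 7 was among the controls. The difference was -0.33 (interval -0.69 to 0.024, adjusted p = 0.796, limma).

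At the enolase step the signs of the 2 isozymes were also opposite, but neither difference passed and the groups of both overlapped. ENO1, the form of most tissues, read 11.31 to 11.81 in control dogs and 12.25, 13.02, 11.81, 11.31 and 11.60 in ad libitum dogs 2, 5, 6, 7 and 8. Dogs 5 and 2 stood above all others, as they did for PGAM1, while dog 7 was as low as the lowest control. The difference was 0.42 (SE 0.32), and the other 2 tested probe sets had 0.47 each. ENO3, the muscle enolase, was 15.83, 15.79, 15.86 and 15.93 in control dogs 1, 3, 4 and 9 and 15.71, 15.82, 15.71, 15.96 and 15.55 in ad libitum dogs 2, 5, 6, 7 and 8, a difference of -0.10 (interval -0.35 to 0.14). The groups overlapped, with dog 8 lowest and dog 7 highest.

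PKM, pyruvate kinase, which closes glycolysis and yields ATP, read 12.31, 12.28, 12.54 and 12.78 in control dogs 1, 3, 4 and 9. The ad libitum dogs 2, 5, 6, 7 and 8 had 11.67, 12.10, 11.71, 12.69 and 11.18. Dogs 2, 5, 6 and 8 were again below every control and dog 7 was above 3 of the 4. The means were 11.9 ± 0.563 (SD, n = 5) and 12.5 ± 0.234 (SD, n = 4), a log2 difference of -0.61 (interval -1.23 to 0.015, adjusted p = 0.796, limma), or 1.52-fold lower. The second probe set of PKM differed by -0.67, and the main one by -0.29 with either the adipocyte or the fast fibre covariate. Neither probe set is assigned to one of the splice forms of this gene in the tables used here.

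**Figure D2:**
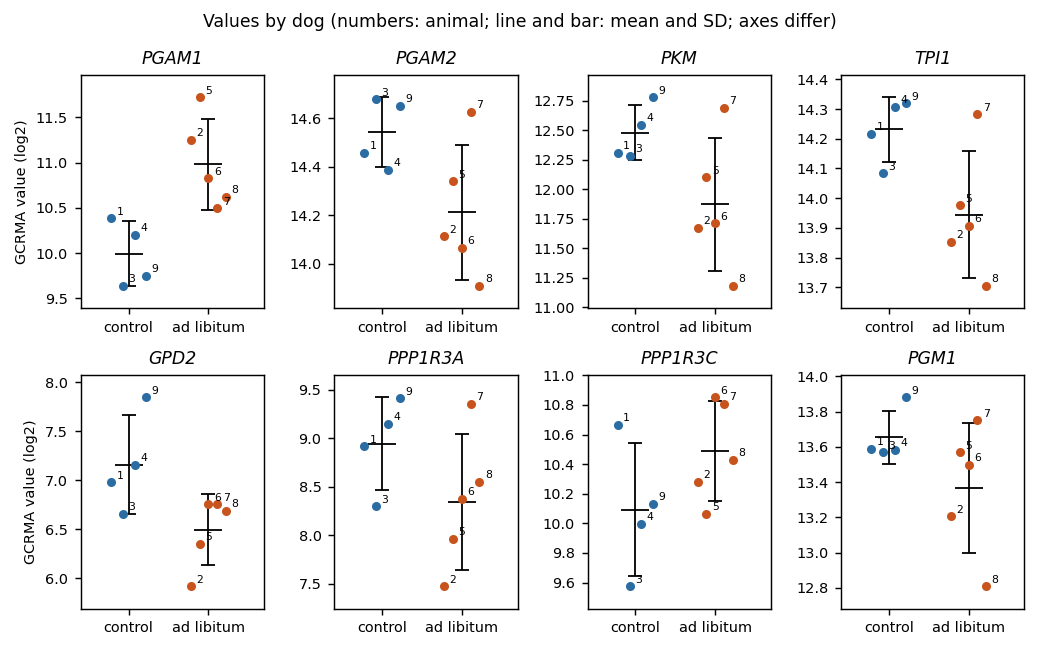
GCRMA value (log2, vertical axis, a different range in each panel) of 8 members in each dog, blue for control and orange for ad libitum, with the animal number beside each point and the mean and SD in black. PGAM1 is the panel without overlap; in the panels of PGAM2, PKM and TPI1, ad libitum dog 7 lies among the controls and the other 4 ad libitum dogs lie below them.

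Lactate and glycerol phosphate are the branches that regenerate NAD in the cytosol. LDHA, the muscle-type subunit of lactate dehydrogenase, read 14.80, 14.03, 14.59 and 14.94 in control dogs 1, 3, 4 and 9 and 14.30, 14.70, 14.54, 14.80 and 14.08 in ad libitum dogs 2, 5, 6, 7 and 8. Both groups spanned nearly the same range, and the difference was -0.11 (interval -0.59 to 0.38). The cytosolic glycerol phosphate dehydrogenase GPD1, which also supplies the backbone of triglyceride, differed by -0.21 (SE 0.14), and its other 2 tested probe sets by -0.24 and -0.20. GPD1L, a relative of GPD1, differed by -0.18 (SE 0.45).

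GPD2, the mitochondrial partner that passes these electrons to the respiratory chain, had the most negative difference of all tested members. It was 6.98, 6.66, 7.16 and 7.85 in control dogs 1, 3, 4 and 9, and 5.92, 6.35, 6.76, 6.76 and 6.69 in ad libitum dogs 2, 5, 6, 7 and 8. Control dog 9 was highest and ad libitum dogs 2 and 5 lowest, while control dog 3 fell below ad libitum dogs 6, 7 and 8. The means of 6.49 ± 0.362 (SD, n = 5) and 7.16 ± 0.502 (SD, n = 4) gave a log2 difference of -0.67 (interval -1.26 to -0.075, adjusted p = 0.796, limma), or 1.59-fold lower, with 1 tested probe set.

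Glycogen synthesis showed no member near the threshold. PGM1, phosphoglucomutase, which links glycolysis to glycogen, read 13.59, 13.57, 13.58 and 13.88 in control dogs 1, 3, 4 and 9 and 13.21, 13.57, 13.50, 13.75 and 12.81 in ad libitum dogs 2, 5, 6, 7 and 8. Dog 8 was lowest, and dogs 5 and 7 lay within the control range. The difference was -0.29 (interval -0.72 to 0.14), and over 5 probe sets it ran from -0.38 to -0.24.

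UGP2, which makes the UDP-glucose that is built into glycogen, was 12.29 to 12.84 in control dogs. In ad libitum dogs 2, 5, 6, 7 and 8 it was 11.69, 12.01, 11.84, 13.38 and 12.72. Dogs 2, 5 and 6 were below all controls and dog 7 was above all of them, so the difference of -0.30 had a wide interval of -1.06 to 0.46. Over 4 tested probe sets of UGP2 the difference ran from -0.67 to -0.30, and with the adipocyte covariate it was 0.24. GYG1, glycogenin, the primer of the granule, had a difference of -0.0021 (interval -0.30 to 0.30).

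GYS1, muscle glycogen synthase, read 8.64, 8.62, 9.01 and 8.81 in control dogs 1, 3, 4 and 9 and 8.99, 9.04, 8.57, 9.53 and 8.45 in ad libitum dogs 2, 5, 6, 7 and 8. Ad libitum dogs lay on both sides of the controls, and the difference was 0.15 (interval -0.34 to 0.64). GBE1, the branching enzyme, differed by 0.15 (SE 0.34) on its main probe set and by -0.076 on the other.

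The breakdown genes had negative differences in 4 of 4, none large. PYGM, muscle glycogen phosphorylase, which is lost in McArdle disease, read 15.04, 15.16, 14.95 and 15.24 in control dogs 1, 3, 4 and 9 and 14.88, 14.87, 14.82, 15.34 and 14.81 in ad libitum dogs 2, 5, 6, 7 and 8. Dogs 2, 5, 6 and 8 were below every control and dog 7 was above all of them. The difference was -0.15 (interval -0.47 to 0.16, adjusted p = 0.866, limma). The phosphorylase kinase subunits PHKA1 (muscle alpha), PHKB (beta) and PHKG1 (muscle catalytic gamma) differed by -0.29 (SE 0.38), -0.052 (SE 0.28) and -0.082 (SE 0.30). For each of these 3 subunits, dog 7 and control dog 9 were the highest of the 9 dogs.

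The phosphatase targeting subunits, which bring protein phosphatase to glycogen and so favour synthesis, pointed in opposite directions. PPP1R3A, the large muscle subunit, read 8.92, 8.30, 9.15 and 9.41 in control dogs 1, 3, 4 and 9 and 7.48, 7.97, 8.37, 9.36 and 8.55 in ad libitum dogs 2, 5, 6, 7 and 8. Dogs 2 and 5 were lowest, while dogs 6, 7 and 8 lay above control dog 3, so the groups overlapped. The difference was -0.60 (interval -1.43 to 0.23, adjusted p = 0.804, limma).

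PPP1R3C, the targeting subunit of many tissues, was 10.67, 9.58, 9.995 and 10.13 in control dogs 1, 3, 4 and 9. Ad libitum dogs 2, 5, 6, 7 and 8 had 10.28, 10.06, 10.85, 10.81 and 10.43. Dogs 6 and 7 were highest, and control dog 1 was above the other 3 ad libitum dogs. The difference was 0.40 (interval -0.15 to 0.94, adjusted p = 0.803, limma), with 0.44 on the second probe set.

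EPM2A, laforin, the glycogen phosphatase mutated in Lafora disease, was 8.28, 8.47, 9.00 and 8.37 in control dogs 1, 3, 4 and 9. In ad libitum dogs 2, 5, 6, 7 and 8 it was 8.37, 7.02, 7.69, 8.90 and 8.43. Dogs 5 and 6 were below the rest, and the other 3 ad libitum dogs lay within the control range, for a difference of -0.45 (interval -1.25 to 0.36).

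Isozymes of the same step, and GPD1 with its mitochondrial partner GPD2, were compared within dogs. The question was whether the 2 members of a pair changed unequally. Of 9 pairs listed, 7 had both members tested. PGAM2 minus PGAM1 was lower by 1.32 log2 units in ad libitum dogs (two-sided exact permutation p = 0.0317 over 126 arrangements of the dogs, 0.222 after Benjamini-Hochberg adjustment over the 7 pairs). Ad libitum dogs 2, 5, 6 and 8 lay below all 4 controls and dog 7 just above control dog 1. The pair holds PGAM1, whose own difference was 0.99, so it is not separate evidence from that gene. For ENO3 minus ENO1 the difference was -0.52 (exact permutation p = 0.206, adjusted 0.481), and for PFKM minus PFKL -0.46 (exact permutation p = 0.302, adjusted 0.528). HK2 minus HK1, ALDOA minus ALDOC and GPD1 minus GPD1L differed by 0.028, -0.031 and -0.031, and GPD1 minus GPD2 by 0.46 (exact permutation p = 0.175, adjusted 0.481). No pair passed after adjustment. Of the 126 arrangements, 1 is a share of 0.00794, and the two-sided p counts both directions, so its floor is higher. Over 7 pairs, 1 pair alone at that floor could not reach an adjusted p under 0.05. The lack of a passing pair therefore carries no conclusion.

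The same few dogs were often at the ends of the range. Control dog 9 held the highest value of 13 of the 33 members and ad libitum dog 7 of 6, while ad libitum dogs 8 and 2 held the lowest value of 11 and 8. Over all tested probe sets, dog 9 was highest for 9.58 percent and dog 7 for 12.6 percent, and dogs 8 and 2 lowest for 10.7 and 18.5 percent. The median deviation of the 21 glycolysis members from each gene's mean over the 9 dogs was 0.033, -0.069, 0.062 and 0.25 in control dogs 1, 3, 4 and 9. In ad libitum dogs 2, 5, 6, 7 and 8 it was -0.082, -0.026, -0.034, 0.16 and -0.23.

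Glycogen members separated dog 7 still more. Their median deviation was 0.061, -0.22, -0.023 and 0.30 in control dogs 1, 3, 4 and 9, and -0.25, -0.22, -0.21, 0.64 and 0.029 in ad libitum dogs 2, 5, 6, 7 and 8. In dog 7 all 12 tested glycogen members were above their mean over the dogs, and in dogs 2 and 5 only 2 of 12 were. Among the tested members, PGAM1 and ENO1 were the 2 for which dog 5 was highest.

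**Figure D3:**
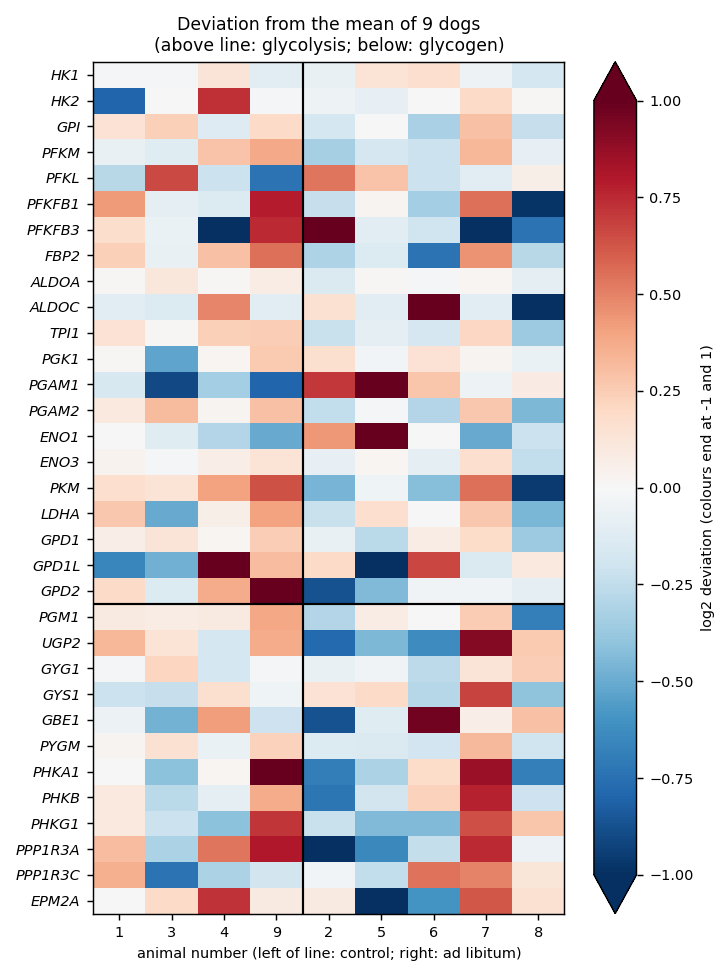
Log2 deviation of each tested member (rows, glycolysis above the line, glycogen metabolism below) from its mean over the 9 dogs, in each dog (columns, control left of the line, ad libitum right); red is above and blue below, and colours end at -1 and 1. The column of ad libitum dog 7 is red for all 12 glycogen members, and the PGAM1 row is blue in the 4 control dogs.

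Leaving out ad libitum dog 7 moved the counts of members most among the fits that left out 1 dog. Then 9 of 33 members had an unadjusted p under 0.05 in the lower direction, against 3.61 percent of all probe sets, and 1, PGAM1, in the higher direction, against 8.08 percent. These 9 were PKM, FBP2, TPI1, PGAM2, PPP1R3A, GPD2, UGP2, PYGM and GPI, with differences from -0.85 for PPP1R3A to -0.25 for PYGM. None passed: the lowest adjusted p without dog 7 was 0.175 for PGAM1 and 0.199 for PKM (limma). In the fits without each of the other dogs, 0 to 3 members had an unadjusted p under 0.05 in the lower direction and 1 to 2 in the higher. For those fits the share of all probe sets was not counted.

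Markers of adipocytes, macrophages, fibroblasts and fast fibres set some of the same dogs apart. In bulk muscle RNA, fewer fibres in the sample and less RNA of a gene per fibre cannot be told apart. The mean of 13 adipocyte markers was 9.14, 8.17, 7.78 and 8.54 in control dogs 1, 3, 4 and 9, and 10.4, 9.74, 9.73, 8.25 and 9.20 in ad libitum dogs 2, 5, 6, 7 and 8. Dog 7 was the 1 ad libitum dog inside the control range. The same held for 9 macrophage markers, with 5.21 to 5.98 in control dogs, 5.28 in dog 7 and 6.31 to 8.39 in the other ad libitum dogs. It also held for 12 fibroblast and fibro-adipogenic progenitor markers, with 8.21 to 9.64 in control dogs, 8.48 in dog 7 and 10.4 to 12.2 in the others. Dog 5 was highest for the macrophage and fibroblast lists, as for PGAM1, ENO1 and PFKP, the last of which was below the filter. The other forms named above as found in many cell types did not share this: PFKL was highest in control dog 3 and HK1 in ad libitum dog 6.

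Counted by gene, 12 of 13 adipocyte, 9 of 9 macrophage and 12 of 12 fibroblast markers had higher means in ad libitum muscle. Of 10 endothelial markers 5 were higher, of 7 smooth muscle and pericyte markers 4, and 2 of 2 erythrocyte markers were lower. The means of these last lists differed by -0.058, 0.023 and -0.11. The summed level of the list, in log2 of the summed linear values, was 13.3 to 14.8 in control and 13.6 to 15.3 in ad libitum dogs for adipocytes. For macrophages it was 8.95 to 9.86 and 9.01 to 12.8, and for fibroblasts 14.2 to 15.4 and 13.9 to 17.2. Among the defining macrophage genes CD68, CSF1R, TYROBP, FCER1G and AIF1 were below the filter, and ADRB3 of the adipocyte list had no probe set with its symbol alone.

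Of the 14 fast fibre markers, 14 had lower means in ad libitum muscle, with a median of -0.16. Of 12 slow fibre markers 11 had higher means, with a median of 0.091. The mean of the fast list was 14.21, 14.15, 14.11 and 14.54 in control dogs 1, 3, 4 and 9 and 13.83, 14.42, 13.79, 14.44 and 13.31 in ad libitum dogs 2, 5, 6, 7 and 8. Dog 8, lowest for 8 of 21 glycolysis members, was lowest here too, and dogs 9 and 7 were highest. Dog 5, at 14.42, was close to dog 7 on this list, but its glycolysis median deviation was -0.026. When the adipocyte marker mean entered the fit as a covariate, the members split 17 lower and 16 higher, and with the fast fibre mean 18 and 15. The adipocyte covariate left 0 members with an unadjusted p under 0.05 in either direction, and the fast fibre covariate 0 lower and 1 higher. For neither fit was the share of all probe sets counted. The adipocyte mean itself was 1.05 higher in the ad libitum group, so with 9 dogs this fit cannot tell it apart from feeding. The adipocyte covariate turned the sign of 12 members, among them PPP1R3A (0.027), EPM2A (0.063), PFKM (0.075) and ENO1 (-0.045), and brought GPD2 to -0.43. The part of these cell types in the members' differences was not tested. The 3' minus the 5' control value of GAPDH, a measure of RNA integrity, averaged 2.09 ± 0.107 (SD, n = 4) in controls and 2.21 ± 0.0676 (SD, n = 5) under free feeding.

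**Figure D4:**
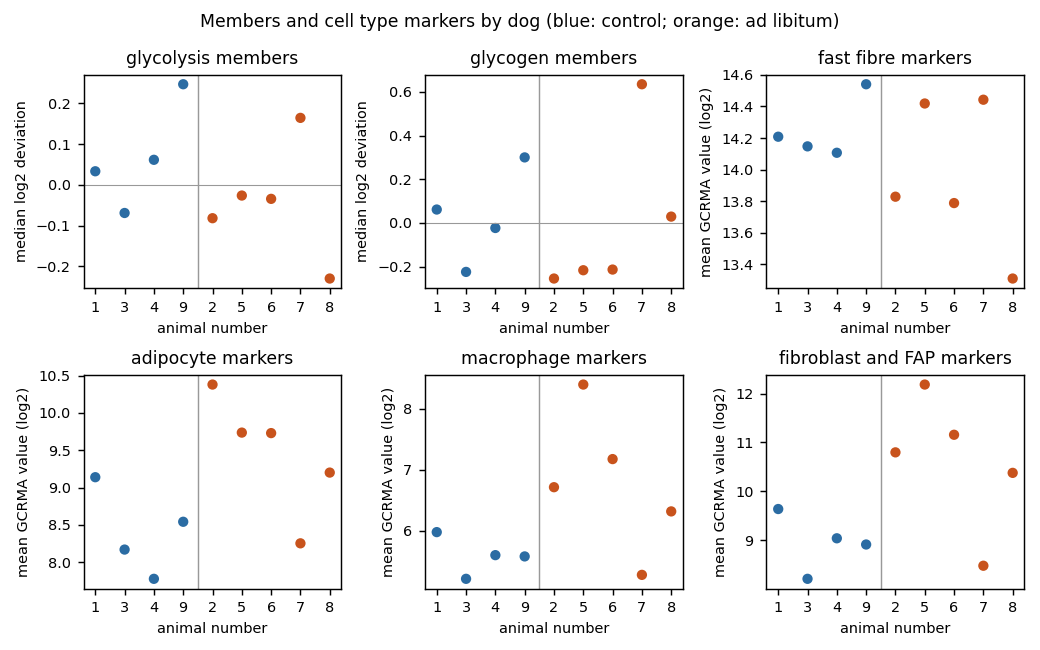
Each panel gives the 9 dogs on the horizontal axis (blue, control; orange, ad libitum): the median log2 deviation of the glycolysis and of the glycogen members, and the mean log2 GCRMA value of the fast fibre, adipocyte, macrophage, and fibroblast and fibro-adipogenic progenitor (FAP) markers. Dog 7 is high in the first 3 panels and, of the ad libitum dogs, lowest in the last 3.

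Neighbouring pathways gave 0 genes past the adjusted test as well. The enzymes of the pentose phosphate and hexosamine branches draw sugar phosphates off glycolysis for NADPH, ribose and protein glycosylation. They had higher means in ad libitum muscle in 10 of 12 tested genes, with a median of 0.33. The mean of this list was 7.22 to 7.46 in control dogs. Ad libitum dog 7 lay below them at 7.14, and the other ad libitum dogs had 7.64 to 7.90. RPE, which interconverts pentose phosphates, differed by 0.37 (SE 0.15) on its main probe set, which lies near the filter, while its other 2 tested probe sets were negative (-0.083 and -0.058). PGD, an NADPH-making dehydrogenase, differed by 0.68 (SE 0.37), and SORD, sorbitol dehydrogenase, by 0.54 (SE 0.31).

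Of the other glycolytic and gluconeogenic enzymes, 7 of 9 were higher with a median of 0.22. The highest was PCK1, which makes phosphoenolpyruvate from oxaloacetate, at 3.81 (SE 1.35), and its 3 tested probe sets ran from 1.28 to 3.81. PCK1 read 1.91 to 8.44 in control and 6.65 to 10.5 in ad libitum dogs, so the groups overlapped. Control dog 4 lay below the filter level and control dog 3, at 4.38, close to it. FBP1, the liver form of fructose bisphosphatase, differed by 1.47 (SE 0.63) on its main probe set and by 0.57 (SE 0.38) on the other. The muscle form FBP2 differed by -0.45, and G6PC3 by 0.30 (SE 0.21). On its main probe set FBP1 averaged 4.23 in control dogs, close to the filter level. Control dogs 3 and 9 and ad libitum dog 7 lay below that level, at 3.83, 3.81 and 3.83.

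The remaining glycogen genes and the glucose and pyruvate handling genes were centred near 0. Of 14 other glycogen genes 6 were higher and 8 lower, with a median of -0.053. Among them PPP1CB, a catalytic subunit of protein phosphatase, differed by -0.45 (SE 0.31), but by 0.0062 on its other tested probe set. PGM2, a relative of PGM1, differed by 0.35 (SE 0.30), and by 0.032 on its other tested probe set. GAA, the lysosomal glucosidase that digests glycogen, differed by -0.29 (SE 0.28). Of 21 transport and pyruvate genes 8 were higher and 13 lower, with a median of -0.040. PDP1 and PDPR, the catalytic and regulatory parts of pyruvate dehydrogenase phosphatase, differed by -0.50 (SE 0.27) and 0.65 (SE 0.38), and PDK3, a kinase of the same complex, by 0.32 (SE 0.19).

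Among regulators of glycolytic genes, 10 of 13 had lower means with a median of -0.19. MYC, a transcription factor that drives glycolytic genes in growing cells, had a mean of 5.59 ± 1.09 (SD, n = 4) in controls against 4.18 ± 0.730 (SD, n = 5) with free feeding, and the log2 difference was -1.41 (SE 0.53). The ad libitum mean lies close to the filter. MLX, the partner of the glucose-sensing factor ChREBP, differed by -0.42 (SE 0.20), and PRKAA2, the main catalytic AMPK subunit of muscle, by -0.46 (SE 0.27).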

How the data were processed

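Muscle RNA of each of 9 dogs was extracted with Trizol and hybridised as biotin-labelled cRNA to 1 Affymetrix canine array, per the labels' protocols. The authors deposited GCRMA values, per the submitters' processing notes. GCRMA corrects background by probe sequence and equalises the arrays' distributions, so a shift of most transcripts would not show. No source used here states the log base; log2 was taken from the range of the deposited values. No sequence table was used.

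Symbols came from the platform annotation (29264 probe sets with 1 symbol, 439 with several, not named). The 18394 probe sets above log2 4 on at least 4 arrays, without the 111 control probe sets, entered a linear model in limma 3.58.1, run in R 4.3.3 (no covariate, 7 residual and 2.32 prior degrees of freedom) and adjusted by Benjamini-Hochberg. Array pairs correlated at 0.976 to 0.994. The number of arrays limits precision, with a median standard error of 0.197. The pairs compared within dogs used exact permutation (scipy 1.17.1). The fit was tested on simulated data.

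Members and lists were chosen with earlier results of these data known. Values of every dog are given for the 5 lowest p of glycolysis and of glycogen metabolism and for the muscle isozymes; of neighbouring lists the 3 lowest p are named. UGP2, ENO1, PFKP and PFKFB3 were added after their values were seen. Fits with control probe sets kept, and single members with a marker covariate, were also added then.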

Additional observations from a re-analysis of the deposited data

Results flagged for a closer look

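In 4 members, 1 dog stood far from the rest of its group, by a gap larger than Dixon's 95 percent limit. Of the 98 groups of dogs examined, 72 were of members. Chance alone gives about 1 in 20, so a count of 4 is near what chance gives. PYGM was 15.3 in ad libitum dog 7, where the other 4 ad libitum dogs read 14.81 to 14.88. PGM1 was 13.9 in control dog 9, against 13.57 to 13.59 in the other controls. ALDOC was 5.64 in control dog 4, against 5.02 to 5.05. PFKFB2, which lies near background in every dog, was 2.25 in ad libitum dog 7, against 2.13 to 2.16.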

How the results depend on the processing

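No paired analysis was possible because animal numbers do not repeat between the groups. Of 36 members, 17 kept the sign of their difference under the alternatives run and 19 did not; no member passed in any of them, and the causes were not tested. With values floored at log2 4, 1 probe set passed (CISH, -2.97), and with the fast fibre covariate 1 (SOCS2, -2.76). Leaving out 1 dog gave 0 to 1 (LOC489640, without ad libitum dog 8). The median of the glycogen members was 0.13 with the adipocyte covariate, -0.25 with array weights and -0.0048 with the fast fibre covariate, and -0.25 to -0.0048 over fits that left out 1 dog. The median of the glycolysis members was -0.21 with array weights, -0.067 with the fast fibre covariate and -0.18 with a filter at log2 6; without control dogs 1 and 3 in turn it was -0.19 and -0.16. Signs turned with centring for HK1 (-0.039), HK2 (-0.011) and PFKFB2 (-0.036), with array weights for PFKFB3 (-0.10) and ALDOC (0.11), and with cyclic loess for GYG1 (0.0070). On other probe sets they turned for ALDOC (0.33, and 0.13 as the mean), GBE1 (-0.076) and PHKB (0.0068). The covariate fits of single members were added after seeing the data. With the adipocyte covariate signs turned for HK1 (-0.0028), PFKM (0.075), PFKFB3 (-1.39), ENO1 (-0.045), GPD1L (0.094), UGP2 (0.24), GYG1 (0.094), PHKA1 (0.10), PHKB (0.33), PHKG1 (0.16), PPP1R3A (0.027) and EPM2A (0.063). With the fast fibre covariate they turned for ALDOC (0.046), LDHA (0.087), PHKA1 (0.025), PHKB (0.12) and PHKG1 (0.0090). Over fits that left out 1 dog, differences near 0 turned: HK1 -0.038 to 0.048, HK2 -0.23 to 0.28, PFKFB2 -0.015 to 0.016, PFKFB3 -0.49 to 0.52, ALDOC -0.35 to 0.23, PGK1 -0.051 to 0.21, LDHA -0.29 to 0.0091, GPD1L -0.43 to 0.20, GYG1 -0.063 to 0.068, GYS1 -0.0041 to 0.27, GBE1 -0.075 to 0.38, PHKB -0.25 to 0.12 and PHKG1 -0.25 to 0.14. The pairs HK2 minus HK1 (-0.22 to 0.24), ALDOA minus ALDOC (-0.32 to 0.25) and GPD1 minus GPD1L (-0.43 to 0.20) did too. HK1, PFKP and PFKFB2 lie near background, which limits what their values show.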
